A study of Homo sapiens with 6 samples.

Results

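The genes described here encode brakes on Ras and MAP kinase signaling: the dual-specificity phosphatases of the DUSP series, the Sprouty and SPRED proteins, the Ras GTPase-activating proteins RASA2 and NF1, and PEBP1. They were read in SUM-LM1 cells, a lung-metastatic derivative of the human breast cancer line SUM159, after 6 h with 50 ng/ml recombinant Activin B or with vehicle (0.1% BSA in PBS). Cells of both groups came from this same line, had 1 day of culture in medium with serum, and were then seeded at 12500 cells per ml on ultra-low attachment plates in HuMEC medium containing 0.1% BSA, where they cannot spread on the plastic. Activin B is a dimer of the INHBB subunit and a ligand of the TGF-beta family. Each group held 3 biological replicates, each read on an Affymetrix U133 Plus 2.0 array, on which a transcript is represented by probe sets whose signal is given on the log2 scale. The list of members was drawn up with earlier results of these data known. Members were taken by gene symbol: DUSP followed by a number, SPRY1 to SPRY4, SPRED1 to SPRED3, RASA1, RASA2, NF1 and PEBP1, from probe sets with a single symbol. This gave 32 genes of 19775 on the array, read by 60 probe sets, 22 of the genes being DUSPs. RASA1 was not analysed here, DUSP13B carries a letter after its number and was not counted, and NF1 was read only from the 1 set that it does not share by annotation with a pseudogene, 9 shared sets being left out. Each gene was represented by its brightest probe set over the 6 arrays, with the other sets as a check.

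Growth factor receptors activate Ras, which drives the kinase chain from RAF through MEK to ERK, while stress and cytokine signals drive the JNK and p38 chains. The brakes act at different levels: Sprouty and SPRED proteins act near Ras and RAF, Ras GTPase-activating proteins return Ras to its inactive form, PEBP1 (also called RKIP) binds RAF, and DUSPs remove the activating phosphates from the MAP kinases themselves. Several DUSP and Sprouty genes are transcribed in response to the same kinases that their products restrain, so that their transcripts are widely used as a readout of pathway activity. In breast cancer cells ERK activity is linked to growth and migration. Only transcripts were measured here, and neither kinase phosphorylation nor phosphatase protein.

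The arrays had median log2 signals between 6.69 and 6.70. The mesenchymal marker VIM lay 7.20 above the mean array median on this scale. The epithelial keratins KRT18, KRT8 and KRT5 lay 5.35, 2.32 and 0.75 above it. The epithelial markers EPCAM and CDH1 lay 0.42 and 0.41 below it. The leukocyte marker PTPRC (0.43 below) and the endothelial marker CDH5 (0.61 below) also lay below it. The endothelial marker PECAM1 and the fibroblast marker DCN lay 1.05 and 1.39 above it, whereas LUM, the other fibroblast marker read, lay 0.38 below it. Of the 17 markers read none passed the test between groups (lowest adjusted p = 0.801 by limma). Whether the PECAM1 and DCN signals come from the cancer cells was not tested. Activin B replicate 3 stood apart on the first principal component, at 21.7 against -10.6 to 5.70 for the other arrays, and its effect on the members is given with the atypical DUSPs. All samples came from the same cell line. In bulk RNA, fewer cells expressing a transcript and less of it per cell cannot be told apart.

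Of these brakes, DUSP2 alone passed the test between activin B and vehicle. Of the 32 genes, 1 rose and none fell by limma at an adjusted p under 0.05, against 0.101% of all genes that rose and 0.091% that fell. Without adjustment, at a p under 0.05, 2 members were higher and 2 lower. The corresponding shares of all genes were 3.14% and 2.75%. The 4 members were DUSP2 and SPRY2, with higher signals under activin B, and DUSP4 and DUSP5, with lower ones. Every activin B array lay above every vehicle array for 2 members (DUSP2 and SPRY2) and below for 4 (DUSP4, DUSP5, DUSP18 and DUSP22), against 5.14% and 5.21% of all genes. The median log2 change of the members was -0.01, against 0.00 for all genes, and 25 of the 32 changes (78.1%) were smaller than 0.1 in either direction, against 81.6% of all genes. The signal of 25 members lay above the array median and that of 7 below it, where a small change could be missed.

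**Figure D1:**
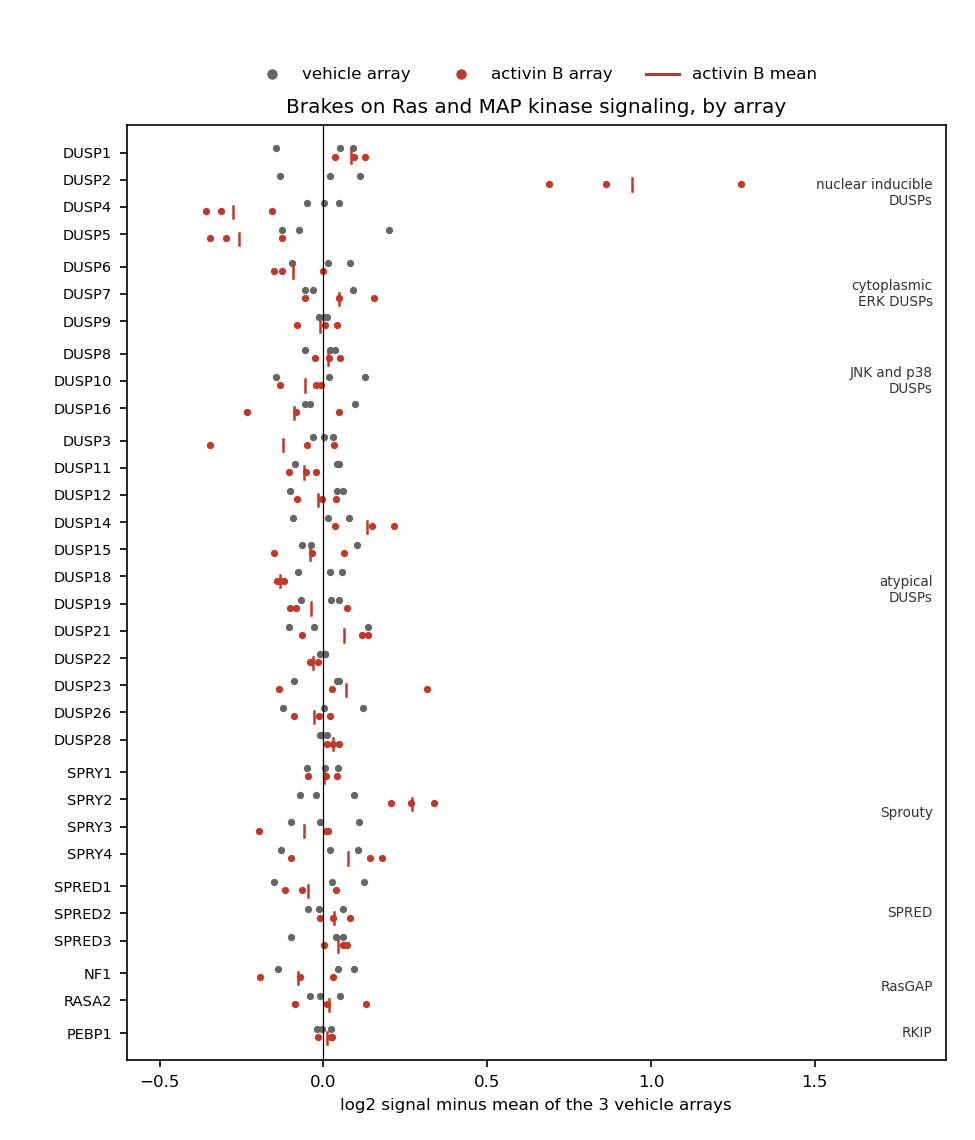
Difference in log2 signal between each array and the vehicle mean (x axis) for the 32 genes, each read from its brightest probe set and grouped by role (y axis). Grey points are vehicle arrays, red points activin B arrays and red ticks activin B means; DUSP2 lies far to the right at a log2 change of 0.94, SPRY2 lies to the right at 0.27, and DUSP4 and DUSP5 lie to the left at -0.28 and -0.26.

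The nuclear, signal-inducible phosphatases DUSP1, DUSP2, DUSP4 and DUSP5 held 3 of the 4 members just named. DUSP2, also known as PAC-1, is a nuclear phosphatase of ERK and p38. Its single probe set, 204794_at, read 7.11, 7.27 and 7.36 in the vehicle arrays. In the activin B arrays it read 8.52, 8.11 and 7.94. The lowest activin B array thus lay 0.58 above the highest vehicle array on the log2 scale, and replicate 1 lay highest of the treated arrays. DUSP2 rose 1.92-fold, a log2 change of 0.94 ± 0.11 (SE, n = 3 per group, 95% interval 0.70 to 1.19; adjusted p = 0.00161 by limma). Each SE and interval of a change given here comes from the limma fit. That fit draws the variance of a probe set partly from all tested sets, so the SE is not the spread of the replicates alone. The study lists DUSP2 in its own activin B signature, which was drawn from these same arrays, so that listing is not independent evidence. Only 4 of the 19775 genes had a larger log2 change. Its replicates spread more widely than those of most genes. The SD was 0.12 in vehicle and 0.30 in activin B (n = 3 each), and 99.6% of genes had a smaller standard error. Without activin B replicate 1 the log2 change was 0.78 (adjusted p = 0.000894), and without activin B replicate 3 it was 1.07 (adjusted p = 0.000278). DUSP2 was called under each of the 17 alternatives run, with adjusted p between 0.000138 and 0.0229.

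DUSP4, which acts on nuclear ERK and JNK, was read by 3 probe sets, and all pointed downwards. The brightest, 226034_at, read 9.25, 9.20 and 9.29 in vehicle. In activin B it read 8.89, 8.93 and 9.09. The second, 204014_at, read 9.13, 9.18 and 8.98 in vehicle and 8.82, 8.85 and 8.78 in activin B. In each of these sets every activin B array lay below every vehicle array, with gaps of 0.11 and 0.13. The third set, 204015_s_at, read 8.62, 8.66 and 8.71 in vehicle and 8.52, 8.42 and 8.61 in activin B, a gap of 0.01. The log2 changes were -0.28 ± 0.07, -0.28 ± 0.07 and -0.14 ± 0.07 (SE, n = 3 per group). None passed over all probe sets (adjusted p = 0.331, 0.308 and 0.942 by limma), although each had an unadjusted p under 0.05. The sets read the same RNA and are not independent samples. The mean of the 3 sets had a log2 change of -0.23 (adjusted p = 0.159), and over all 17 alternatives the change of DUSP4 ran from -0.335 to -0.233 with adjusted p from 0.133 to 0.83.

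DUSP5 and DUSP1 complete this class. DUSP5, a nuclear phosphatase specific to ERK, read 9.19, 8.91 and 8.86 in vehicle on its single set. In activin B it read 8.86, 8.69 and 8.64. The groups did not overlap, but by a gap of only 0.002. Vehicle replicate 1 stood above the rest, and activin B replicate 1 was likewise the highest of its group. The log2 change of -0.26 ± 0.09 (SE, n = 3 per group) did not pass (adjusted p = 0.741 by limma). Without vehicle replicate 1 it was -0.16 (adjusted p = 0.999), 1.6 times smaller. With the replicate number as a block it stayed at -0.26, with a smaller SE of 0.06 (adjusted p = 0.215 by limma). DUSP1, or MKP-1, a phosphatase of p38 and JNK and a common immediate early gene, read 8.86, 9.09 and 9.05 in vehicle. It read 9.13, 9.03 and 9.09 in activin B, so the groups overlapped. Its log2 change was 0.09 ± 0.07 (SE; adjusted p = 0.995), with 0.05 and -0.04 on its 2 dimmer sets. The 95% interval, -0.07 to 0.24, leaves out a rise of the size of DUSP2. For DUSP4 and DUSP5, the intervals of -0.42 to -0.13 and -0.44 to -0.07 lay below 0 before adjustment for the number of probe sets tested.

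**Figure D2:**
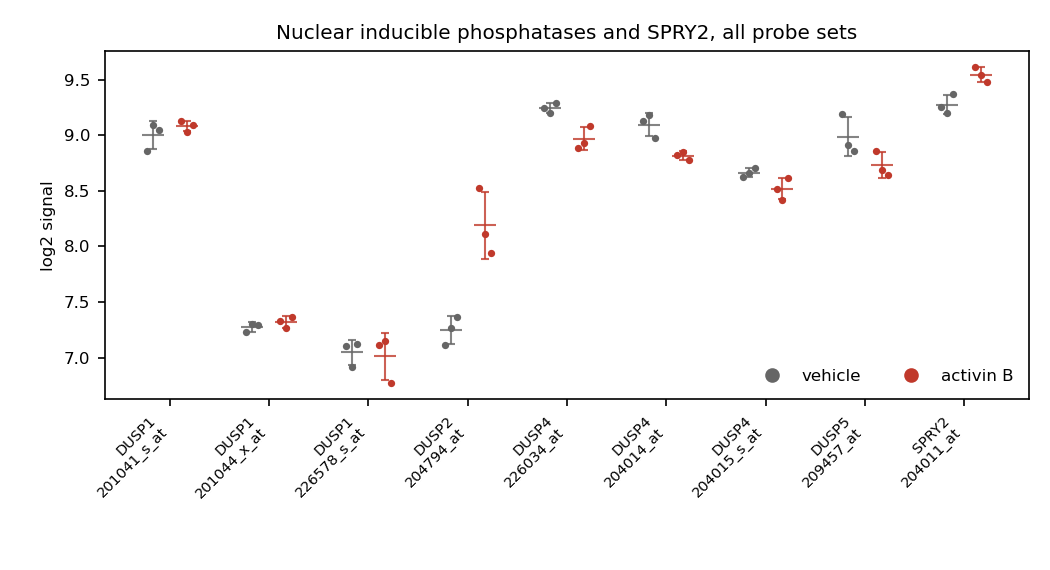
Log2 signal (y axis) of each array for every probe set of DUSP1, DUSP2, DUSP4, DUSP5 and SPRY2 (x axis), grey for vehicle and red for activin B, with group means and SD (n = 3). Levels may be compared between groups within a probe set, not between sets; the 3 sets of DUSP4 each show the activin B arrays below the vehicle arrays, and DUSP2 shows the widest separation.

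The bases just upstream of 3 of these genes are printed, for DUSP2, the phosphatase that rose, for DUSP1 and for SPRY2. DUSP1 did not pass and was the only other member of the nuclear class with such bases at hand. The printed bases are RefSeq windows of GRCh38.p14, 250 bases ending at the base before the annotated transcript start, written on the strand of the gene. Capitals mark CAGAC (or GTCTG on this strand), the box bound by SMAD3 and SMAD4, GGCGCC, a GC-rich element bound by SMAD proteins, and TGACGTCA, the cyclic AMP response element. The windows are chr2:96145441-96145690 for DUSP2, chr5:172771196-172771445 for DUSP1 and chr13:80341127-80341376 for SPRY2, all on the minus strand, the last being the most upstream of 3 starts listed for SPRY2.
DUSP2: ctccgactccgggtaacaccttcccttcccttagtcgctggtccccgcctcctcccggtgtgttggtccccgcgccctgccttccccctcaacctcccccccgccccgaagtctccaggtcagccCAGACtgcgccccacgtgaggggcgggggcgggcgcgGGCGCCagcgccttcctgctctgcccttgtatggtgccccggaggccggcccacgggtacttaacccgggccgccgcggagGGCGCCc
DUSP1: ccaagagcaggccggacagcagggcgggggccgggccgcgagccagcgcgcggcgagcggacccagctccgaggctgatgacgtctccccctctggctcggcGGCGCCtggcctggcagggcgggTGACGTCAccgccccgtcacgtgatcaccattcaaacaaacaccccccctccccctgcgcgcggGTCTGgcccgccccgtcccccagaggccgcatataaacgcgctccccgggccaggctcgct
SPRY2: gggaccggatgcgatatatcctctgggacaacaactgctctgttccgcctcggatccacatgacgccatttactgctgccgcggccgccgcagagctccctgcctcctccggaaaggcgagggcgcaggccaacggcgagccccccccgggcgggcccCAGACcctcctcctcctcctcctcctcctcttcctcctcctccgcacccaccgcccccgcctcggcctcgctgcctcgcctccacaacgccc

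The DUSP2 window held CAGAC once, beginning at base -125 from the start, and GGCGCC at bases -88 and -7. DUSP1 held GGCGCC from base -148, TGACGTCA from base -125 and GTCTG from base -61, and SPRY2 held CAGAC from base -92. CAGAC is common. On both strands, CAGAC occurred in 38% of all 35116 such windows and in 35.7% of the 42 windows of the 27 members with an entry. DUSP4, DUSP5, DUSP12, DUSP26 and RASA2 had no entry, so their upstream bases were not searched for any motif. GGCGCC occurred in 16.4% of all windows and in 33.3% of those of the members, in DUSP1, DUSP2, DUSP3, DUSP7, DUSP9, DUSP10, DUSP14, DUSP16, DUSP18, DUSP23, PEBP1, SPRED1, SPRY2 and SPRY4. For SPRY2 the match lay in 1 of its 3 windows, not the one printed. TGACGTCA occurred in 1.65% of all windows and in 7.14% of those of the members, which is 3 windows, of DUSP1, DUSP8 and NF1. The AP-1 motif TGANTCA occurred in 6.57% of all windows and in 4.76% of those of the members, 2 windows, of SPRED3 and SPRY3. Genes with and without a match were both among those that did not pass. A match is a description of the letters and no evidence of binding, and the windows are rich in G and C, with 74.0% for DUSP2, 74.4% for DUSP1 and 70.4% for SPRY2.

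The cytoplasmic phosphatases of ERK showed little difference. DUSP6, or MKP-3, whose transcript is a standard readout of ERK activity, averaged 9.61 ± 0.09 on the log2 scale in the vehicle arrays and 9.52 ± 0.08 in the treated ones (SD, n = 3). Its log2 change was -0.09 ± 0.07 (SE; adjusted p = 0.995), with a 95% interval of -0.24 to 0.06. The other sets of DUSP6 had changes of -0.05 and 0.02. DUSP7 and DUSP9 had log2 changes of 0.05 and -0.01, and DUSP9 lay below the array median. None of the 3 passed, and none had groups without overlap.

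The phosphatases that prefer JNK and p38, DUSP8, DUSP10 and DUSP16, had log2 changes of 0.01, -0.05 and -0.09 and did not pass. DUSP16 was read by 4 sets, of which 2 had positive and 2 negative changes, between -0.09 and 0.09. DUSP10 had -0.05 and -0.06 on its sets. DUSP8 was read from a set of the type that can cross-hybridise. Its other set had a change of 0.08. The 95% intervals of the 3 brightest sets lay between -0.25 and 0.15.

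The atypical DUSPs are small phosphatases that lack the kinase-docking domain of the others, and some act on substrates other than MAP kinases, such as DUSP11, which acts on RNA. None of 12 passed, and their log2 changes ran from -0.13 for DUSP18 to 0.13 for DUSP14. DUSP18 read 7.11, 7.02 and 7.15 in vehicle and 6.95, 6.96 and 6.97 in activin B. The groups did not overlap, with a gap of 0.04, but the log2 change of -0.13 ± 0.06 did not pass (SE; adjusted p = 0.956 by limma). DUSP14 read 9.71, 9.82 and 9.88 in vehicle and 9.95, 10.02 and 9.84 in activin B, so its groups overlapped (log2 change 0.13 ± 0.07, SE; adjusted p = 0.959). DUSP22 read 8.62, 8.64 and 8.64 in vehicle and 8.59, 8.62 and 8.60 in activin B, with a gap of 0.004 and a log2 change of -0.03 ± 0.06 (SE; adjusted p = 0.999). The log2 changes of DUSP11, DUSP12, DUSP15, DUSP21, DUSP26 and DUSP28 were -0.06, -0.02, -0.04, 0.06, -0.03 and 0.03, each with overlapping groups.

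Leaving out activin B replicate 3 moved 3 members by more than their standard error, DUSP2 (above), DUSP3 and DUSP23, the last 2 described here after their values were seen. DUSP3, or VHR, read 9.00, 8.97 and 8.94 in vehicle and 8.92, 9.00 and 8.62 in activin B. Without replicate 3 its log2 change went from -0.12 to -0.01, and its 2 dimmer sets had changes of 0.06 and 0.03. DUSP23 read 8.58, 8.71 and 8.71 in vehicle and 8.53, 8.69 and 8.98 in activin B. Its log2 change went from 0.07 to -0.055 without that array. The sign also turned for DUSP15 (-0.04 to 0.014), DUSP8 (0.01 to -0.004) and SPRY1 (0.00 to -0.018), and DUSP16 went from -0.09 to -0.017. In all, 16 of the 32 changes turned sign or moved by over 1.5 times without this array, 14 of them smaller than their standard error. DUSP19 was the atypical member whose sets differed most. Its brightest set had a change of -0.04, while a dimmer one read 6.26, 6.27 and 6.25 in vehicle and 6.40, 6.40 and 6.47 in activin B, a change of 0.17 ± 0.06 (SE; adjusted p = 0.834), with -0.06 on the last set. All 3 sets of DUSP19 lay below the array median.

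**Figure D3:**
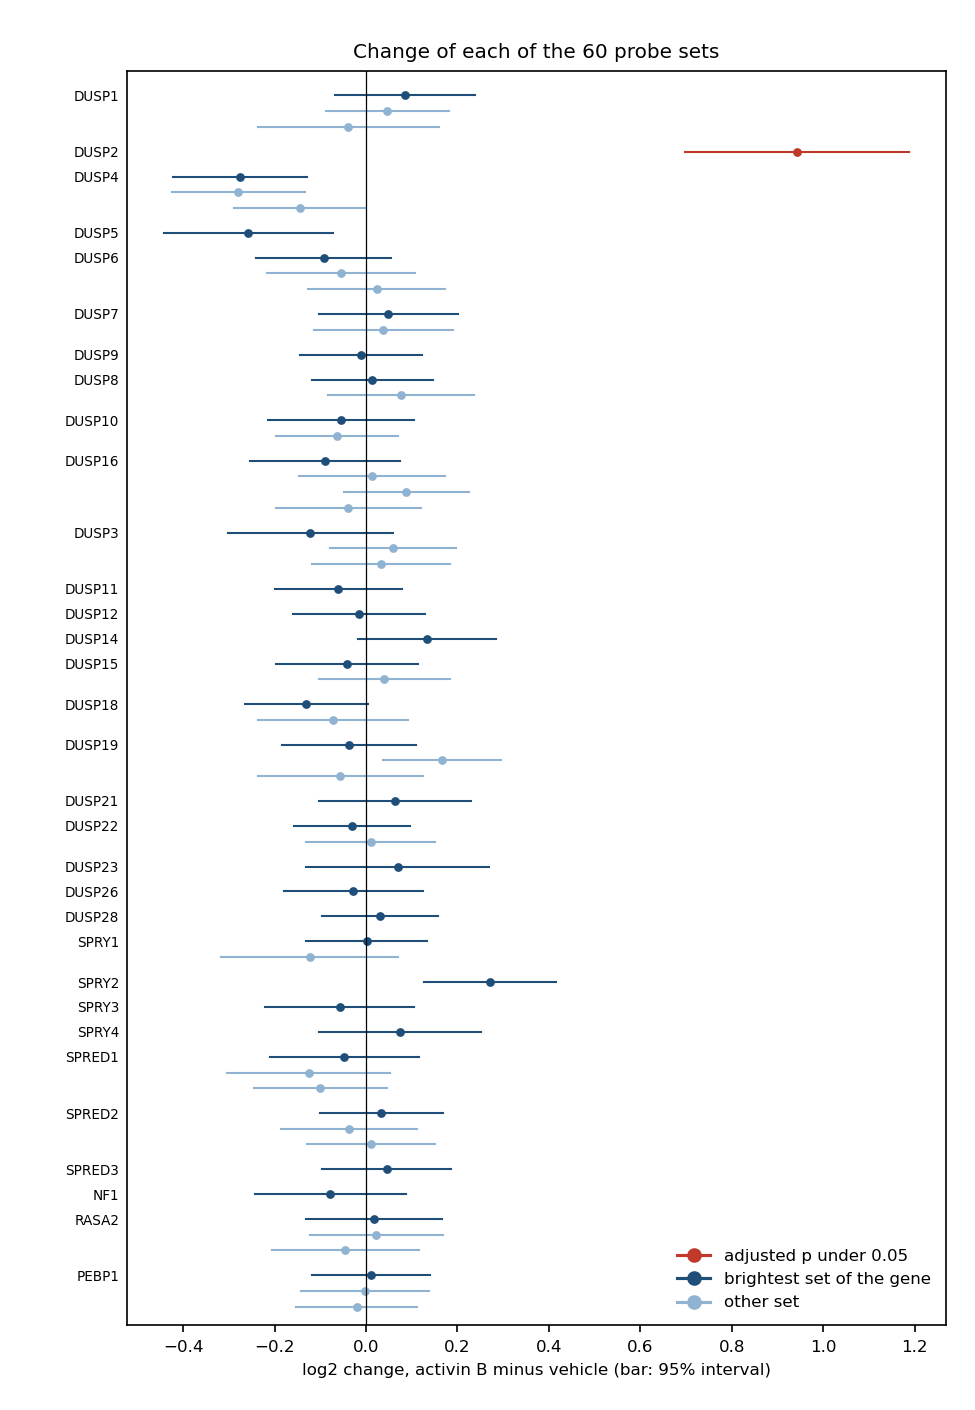
Log2 change, activin B minus vehicle (x axis), of each of the 60 probe sets, with 95% intervals that are not adjusted for the number of sets; sets of a gene follow each other from the brightest down (y axis). Red marks an adjusted p under 0.05, which DUSP2 alone reached, dark blue the brightest set of a gene and light blue its other sets; the 3 sets of DUSP4 lie left of 0.

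Among the Sprouty proteins, SPRY2 had the largest change. SPRY2, an inhibitor of receptor signaling to Ras and RAF, read 9.25, 9.20 and 9.37 in vehicle. In activin B it read 9.61, 9.54 and 9.48, so that every treated array lay above every vehicle array, by a gap of 0.11. Its log2 change of 0.27 ± 0.07 (SE, n = 3 per group, 95% interval 0.13 to 0.42), or 1.21-fold, did not pass over all probe sets (adjusted p = 0.331 by limma). Over the 17 alternatives it ran from 0.235 to 0.317 with adjusted p from 0.173 to 0.967. SPRY2 had a single probe set, so no second reading was at hand. The other members, SPRY1, SPRY3 and SPRY4, had log2 changes of 0.00, -0.06 and 0.07 (adjusted p = 0.999, 0.999 and 0.997). SPRY4, often induced with SPRY2 by ERK, averaged 7.77 ± 0.12 in vehicle and 7.84 ± 0.15 in the treated arrays (SD, n = 3), and SPRY3 lay below the array median. The second set of SPRY1 had a change of -0.12 ± 0.09 (SE).

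The SPRED proteins recruit neurofibromin, the product of NF1, to the membrane, where it returns Ras to its inactive form. SPRED1, SPRED2 and SPRED3 had log2 changes of -0.05, 0.03 and 0.04 and did not pass. All 3 sets of SPRED1 had negative changes, of -0.05, -0.13 and -0.10, none of them with an unadjusted p under 0.05. NF1 had a change of -0.08 ± 0.08 on a set that lay below the array median, so its reading is uncertain, and RASA2 a change of 0.02 ± 0.07 (SE). PEBP1 was bright and closely replicated, at 11.83 ± 0.02 in vehicle and 11.84 ± 0.02 in the treated arrays (SD, n = 3), with changes between -0.02 and 0.01 on its 3 sets. The 95% interval of its brightest set was -0.12 to 0.14. Outside DUSP2, DUSP4, DUSP5 and SPRY2, the intervals of the remaining 28 members lay between -0.30 and 0.28.

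Sets of the same gene were compared across the 17 members with more than 1 set. In 6 of them all sets had the same sign, negative in DUSP4, DUSP10, DUSP18 and SPRED1 and positive in DUSP7 and DUSP8. In the other 11 the signs were mixed, and the changes lay between -0.12 and 0.17. The median SD of the members was 0.08 in each group, against 0.07 and 0.08 for all genes. DUSP2 and DUSP5 and SPRY2, like 12 other members, rested on a single set, so that no second set could check them.

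**Figure D4:**
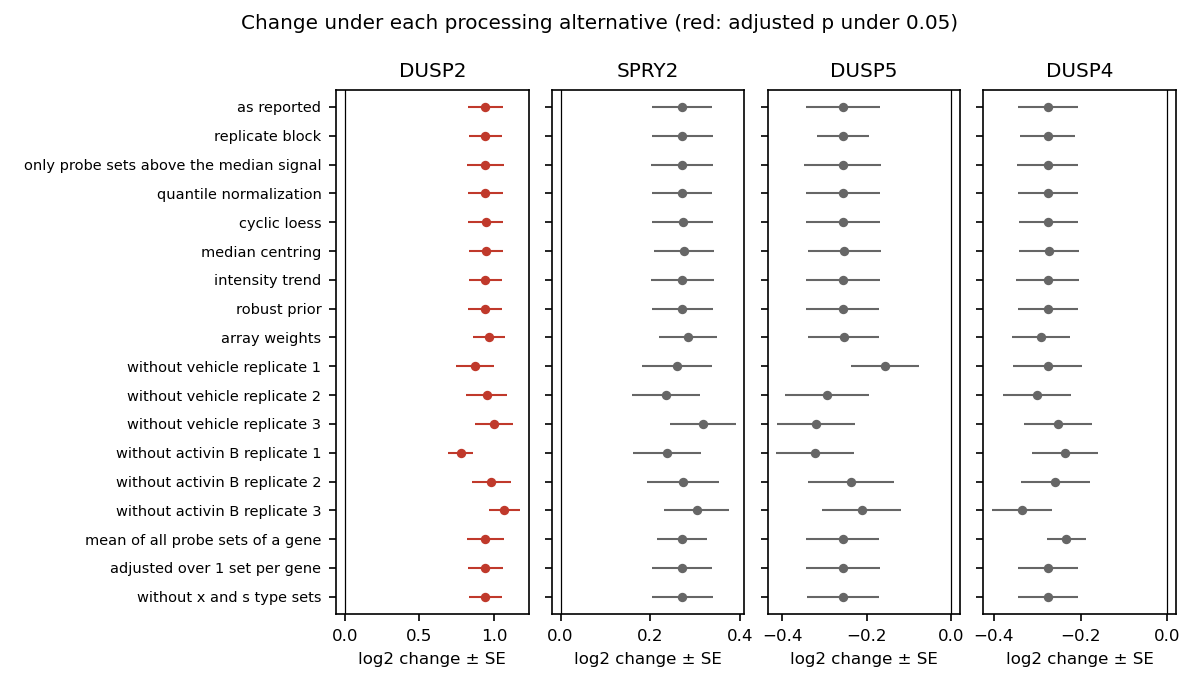
Log2 change of DUSP2, SPRY2, DUSP5 and DUSP4 (x axes, ± SE, with a scale of its own in each panel) as reported and under each processing alternative (y axis), red at an adjusted p under 0.05. DUSP2 is red throughout, between 0.78 and 1.07, and the other genes keep their sign and are grey throughout.

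The rest of the pathway was read from lists of the kinases, their responsive transcripts and further brakes, in which 69 of 81 genes had a named probe set. None of 16 genes of the Ras to ERK chain passed, at an adjusted p or at an unadjusted p under 0.05. Their log2 changes lay between -0.07 and 0.14 with a median of 0.00, the highest being that of ARAF, a RAF kinase. None of 14 genes of the JNK and p38 chains passed, and 1 was higher at an unadjusted p under 0.05, against 3.14% of all genes. That gene, MAP3K4, an upstream kinase of both chains, read 9.90, 9.78 and 9.94 in vehicle and 10.18, 10.01 and 10.21 in activin B (log2 change 0.26 ± 0.07, SE; adjusted p = 0.474 by limma).

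None of 21 ERK-responsive transcripts passed, whereas 5 were higher and 1 lower at an unadjusted p under 0.05, against 3.14% and 2.75% of all genes. Their median log2 change was 0.00, with a range of -0.18 to 0.23 and a median size of 0.12 in either direction, against 0.05 for all genes. The smallest p belonged to HMGA2, an architectural chromatin protein, FOSL1, an AP-1 subunit, and KLF10, a zinc finger factor that TGF-beta also induces, with log2 changes of 0.23, 0.20 and 0.21 (adjusted p = 0.474, 0.777 and 0.777). FOS, the gene lower at an unadjusted p under 0.05, had a change of -0.18 ± 0.08 (SE; adjusted p = 0.934). These transcripts had changes of either sign, as did the nuclear phosphatases.

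Among 18 further brakes, ERRFI1 rose and LRIG1 fell, against 0.101% and 0.091% of all genes. ERRFI1, an inhibitor that binds the EGF receptor kinase, read 9.29, 9.30 and 9.31 in vehicle and 9.92, 10.04 and 9.72 in activin B (log2 change 0.59 ± 0.08, SE; adjusted p = 0.00317 by limma). It was called under all 17 alternatives run, with adjusted p up to 0.0371. LRIG1, a membrane protein that promotes loss of the EGF receptor, read 8.66, 8.68 and 8.69 in vehicle. In activin B it read 8.27, 8.33 and 8.30, a log2 change of -0.37 ± 0.06 (SE; adjusted p = 0.0227 by limma). The call of LRIG1 ended without any 1 array (adjusted p from 0.0578 to 0.155, log2 change from -0.39 to -0.36) and with the mean of its 4 sets (log2 change -0.095; adjusted p = 0.86). Its 3 dimmer sets had changes of -0.02, 0.05 and -0.04. STYX, a catalytically inactive relative of the DUSPs, had a change of 0.19 ± 0.07 (SE; adjusted p = 0.878). The median change of the 18 was 0.04.

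**Figure D5:**
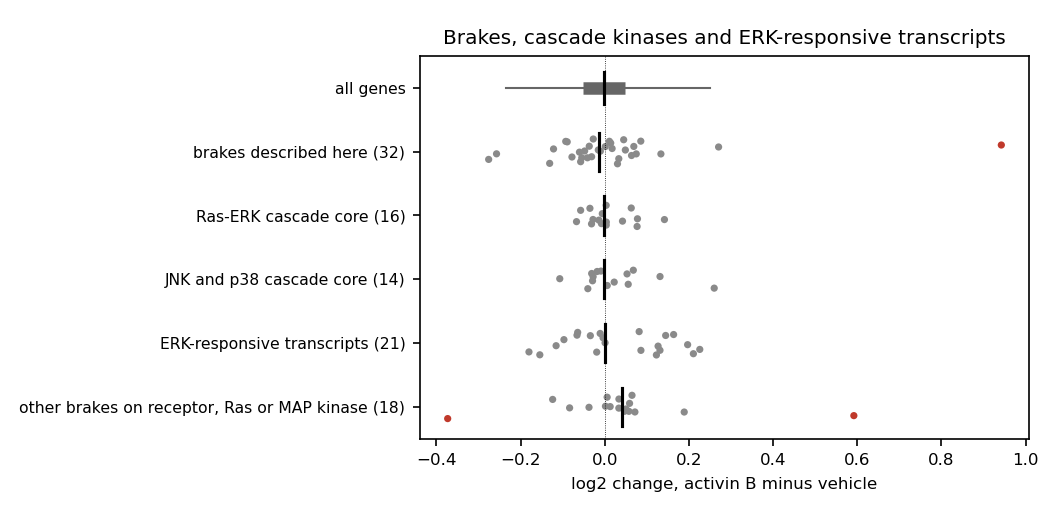
Log2 change, activin B minus vehicle (x axis), of each gene of the lists on the y axis, with the number of measured genes in brackets. Each point is a gene, drawn in red where the adjusted p was under 0.05, and black ticks are medians; for all genes the thick bar spans the middle 50% and the thin line the middle 99%. Red points are DUSP2, ERRFI1 and LRIG1.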

How the data were processed

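RNA (50 ng per sample) was read on Affymetrix Human Genome U133 Plus 2.0 arrays. In Chipster, the authors applied robust multiarray averaging, which subtracts background, gives all arrays the same distribution and joins probes into sets, and they deposited the log2 values. A shift shared by most transcripts is thereby removed, and differences near background are compressed. The sample titles gave group and replicate number.

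Of the deposited log2 table, 54613 probe sets were tested after 62 array controls were left out. Of these, 41091 carried 1 gene symbol in the platform annotation, 1801 several and 11721 none. Symbols were checked by gene identifier against RefSeq (GRCh38.p14), which changed none. Activin B was set against vehicle with limma 3.58.1 (R 4.3.3; linear model and empirical Bayes, residual degrees of freedom 4, prior 10.8), with Benjamini-Hochberg adjustment over all tested sets and calls at an adjusted p under 0.05. The fit joins the spread of each set with that of all tested sets, so every SE, interval and p rests on both. The titles call the replicates biological but name no separate cultures, so p covers only spread among these samples. Precision is limited by having 3 arrays a group. The steps were tested on simulated data.

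Members, roles and pathway lists were chosen with earlier results of these data known. Values in every array are given for members with an unadjusted p under 0.05 and for those whose groups did not overlap. DUSP1, DUSP3, DUSP14, DUSP19 and DUSP23 were added after their values were seen. Of the pathway lists, genes called or with the 3 smallest p were eligible for naming, and FOS was added after its values were seen. Of the listed pathway genes, 12 had no set with a single symbol and were not analysed here. Upstream windows came from RefSeq and were found for 27 of the 32 members. The alternatives tried were a block for the replicate number, a filter on dim sets, quantile normalization, cyclic loess, median centring, a trend or robust prior, array weights, leaving out each array, and other choices of probe set. Scanner files were not used here. Figures were drawn with matplotlib 3.10.9.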

Additional observations from a re-analysis of the deposited data

How the results depend on the processing

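The count of members that rose was 1 and of those that fell 0 under all 17 alternatives run. Over all probe sets, 40 rose and 26 fell. Leaving out 1 array gave 25 to 50 rising and 7 to 26 falling sets. With the replicate number as a block, 53 sets rose and 44 fell. The titles number the replicates but name no shared batch, so the main fit did not take the numbers as pairs. Across probe sets, deviations from the group means correlated between same-numbered arrays at r = 0.162, 0.041 and 0.192. Between arrays of unlike number r was at most 0.017, so every array correlated best with its own number. Whether the numbers mark a shared batch was not tested. The block changed no call of a member (DUSP2, adjusted p = 0.00143; DUSP4, 0.166; DUSP5, 0.215; SPRY2, 0.245). Without vehicle replicate 1, 1 member instead of 2 was lower at an unadjusted p under 0.05. Over 566 single-gene alternatives there were 26 changes of sign, all of them in changes smaller than their standard error, and 7 lost calls, all of LRIG1. Members below the array median and those with a single set limit what small changes could be seen.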
